A study of Homo sapiens with 12 samples.

Results

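NAPSB, AFF3, ALOX5AP, SATB1, RNF144B and MAP3K7CL are 6 genes that were picked from the measured values for a large fall after BCL6 siRNA in Pfeiffer cells, with OCI-Ly7 values also in view. They hold 17 of the 41091 probe sets that carry exactly 1 gene symbol on the array, and 6 of 19775 genes. In Pfeiffer the signal left after BCL6 siRNA ran from 17.9% of the control mean for NAPSB to 35.5% for SATB1, taking the brightest probe set of each gene. In OCI-Ly7 no such fall was measured for 5 of the genes. MAP3K7CL was dim there, with 59.8% of the control mean left and overlapping arrays, so whether it fell could not be told. BCL6 itself also fell less in OCI-Ly7 than in Pfeiffer. On their brightest probe sets ALOX5AP, AFF3 and SATB1 stood higher on every OCI-Ly7 siRNA array than on any OCI-Ly7 control array. None of these rises passed the threshold after adjustment, and 22.9% of all tested genes did not overlap there in either direction. The other AFF3 probe sets and the SATB1 probe set 244267_at did not separate the OCI-Ly7 groups.

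OCI-Ly7 and Pfeiffer are human diffuse large B-cell lymphoma lines of the germinal centre B-cell type. Total RNA was taken 48 h after transient transfection and measured on 12 Affymetrix U133 Plus 2.0 arrays. The 4 groups of 3 arrays were OCI-Ly7 with control siRNA, OCI-Ly7 with BCL6 siRNA, Pfeiffer with control siRNA and Pfeiffer with BCL6 siRNA; all cells carried a transfected oligo. The titles of the Pfeiffer control arrays read NTshRNA, while their descriptions and the design text name a non-target siRNA. RNA came from whole transfected populations of 1 line each, the siRNA sequences are not given in the sources used here, and the labels do not say whether the 3 arrays of a group are 3 cultures. The p-values therefore reflect the spread of these samples alone, which may be technical.

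BCL6 is a transcriptional repressor that germinal centre B cells need and that many lymphomas of this type keep on. The 6 genes belong to different pathways. AFF3 is a nuclear protein of the AF4/FMR2 family, whose members act as scaffolds of the complexes that release paused RNA polymerase, and SATB1 is a chromatin organiser that binds AT-rich DNA and is best known from developing T cells. ALOX5AP, also called FLAP, is a membrane protein that hands arachidonic acid to the lipoxygenase ALOX5 in leukotriene synthesis. RNF144B is a ubiquitin ligase of the RING-between-RING class. NAPSB is a transcribed pseudogene related to the aspartic protease NAPSA, and MAP3K7CL resembles the C-terminal part of the kinase TAK1, the product of MAP3K7, without its kinase domain.

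Promoter sequences are shown for AFF3, SATB1, RNF144B and ALOX5AP, the members with an entry in the promoter set used. On their brightest probe sets all 4 shared an order of levels. Levels were high in OCI-Ly7, lower in Pfeiffer controls and lowest in Pfeiffer after BCL6 siRNA. The last of these steps is what chose the genes, and 1 other RNF144B probe set, 239012_at, read higher in Pfeiffer controls than in OCI-Ly7 controls. RefSeq (GRCh38.p14) gave 8 windows for these 4 genes, each running from 250 bases before a transcript start to 50 bases after it, 300 bases in all. For AFF3 and SATB1, which have several starts, the window farthest upstream is printed. Sequences run 5′ to 3′ on the gene's strand. Capitals mark GAGGAA or its reverse complement TTCCTC, the core of the PU box bound by the Ets factors PU.1 and Spi-B. NAPSB and MAP3K7CL had no entry in the table used.
AFF3 promoter, chr2:100142541-100142840, minus strand: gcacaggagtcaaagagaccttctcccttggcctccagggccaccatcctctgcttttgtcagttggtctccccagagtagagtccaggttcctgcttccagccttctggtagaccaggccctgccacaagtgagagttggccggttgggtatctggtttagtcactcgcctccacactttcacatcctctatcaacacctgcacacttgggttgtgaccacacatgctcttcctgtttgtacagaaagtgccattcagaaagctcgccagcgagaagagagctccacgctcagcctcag
SATB1 promoter, chr3:18445543-18445842, minus strand: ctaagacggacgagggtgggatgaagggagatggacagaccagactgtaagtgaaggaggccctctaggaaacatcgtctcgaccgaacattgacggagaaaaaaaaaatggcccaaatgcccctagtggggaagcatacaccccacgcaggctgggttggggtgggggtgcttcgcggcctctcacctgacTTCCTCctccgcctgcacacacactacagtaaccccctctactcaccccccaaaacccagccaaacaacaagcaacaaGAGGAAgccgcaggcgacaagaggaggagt
RNF144B promoter, chr6:18387100-18387399, plus strand: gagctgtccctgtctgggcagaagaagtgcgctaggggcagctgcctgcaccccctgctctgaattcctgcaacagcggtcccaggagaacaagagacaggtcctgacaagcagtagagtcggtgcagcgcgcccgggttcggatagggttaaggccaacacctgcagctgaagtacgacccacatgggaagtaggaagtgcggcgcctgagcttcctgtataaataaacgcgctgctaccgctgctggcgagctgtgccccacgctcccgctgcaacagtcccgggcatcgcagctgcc
ALOX5AP promoter, chr13:30713235-30713534, plus strand: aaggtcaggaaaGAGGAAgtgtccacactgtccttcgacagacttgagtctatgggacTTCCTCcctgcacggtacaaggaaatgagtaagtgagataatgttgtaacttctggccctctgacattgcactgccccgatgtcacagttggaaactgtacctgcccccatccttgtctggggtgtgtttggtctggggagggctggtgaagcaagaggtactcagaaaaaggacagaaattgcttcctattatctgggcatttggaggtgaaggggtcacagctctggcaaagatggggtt

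A total of 8 motifs were searched on both strands, and the one put in capitals was chosen after its matches had been seen. The core of the BCL6 consensus, TTCCTAGAA, was in 0 of the 8 windows, and 0.373% of the 35116 human windows of this length hold it. Its wider forms TTCCTNGAA and TTCNNNGAA, which contain it and which STAT factors share in part, were also in 0 of the 8, against 1.56% and 7.66% of all windows. At shares this low 0 of 8 is a likely outcome, so no lack of BCL6 sites is read from it. Only exact matches to each motif were counted. GAGGAA stood in 3 of the 8 windows, against 27.9% of all windows, at positions 13 and 59 in ALOX5AP and 193 and 271 in the SATB1 window above, counted from 1 at the 5′ end; the third window was another start of SATB1, with matches at 176 and 199. The overlapping forms GGAAGT and AGAGGAAGT were in 4 and 1 of the 8, against 22.8% and 0.982%. The E-box CACGTG was in 0 of the 8 and TATAAA in 1, against 7.26% and 11.5%. The 8 windows come from 4 genes, several of them from SATB1 and AFF3, so they are not independent promoters. For GAGGAA the 3 of 8 is near the 27.9% of all windows, and nothing is read from these few counts. A match describes letters in the window and shows no binding.

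Levels are given as log2(signal + 16), where signal is the deposited array signal on its linear scale, and a change is BCL6 siRNA minus control on that scale, with limma's standard error. The scale understates changes of dim genes. Levels are compared only for the same probe set. A gene was called where its Benjamini-Hochberg adjusted p, from limma fitted on all 12 arrays over 9888 genes, was under 0.05. The median signal of an array was 71.3 to 85. Pfeiffer BCL6 siRNA replicate 3 had the highest log2 ratio of 3′ over 5′ probe sets in that line. It read -0.027 for GAPDH, where the other 5 Pfeiffer arrays read -0.134 to -0.094, and 0.388 for ACTB, where they read 0.278 to 0.308. Without it the Pfeiffer changes of the 6 genes were -2.57 for NAPSB, -1.94 for AFF3, -1.53 for ALOX5AP, -1.38 for SATB1, -1.48 for RNF144B and -1.62 for MAP3K7CL. BCL6 itself fell by 0.42 ± 0.08 in OCI-Ly7 and by 0.96 ± 0.08 in Pfeiffer (limma adjusted p = 0.00731 and 5.31e-07, n = 3 per group), on its brightest probe set, 203140_at. On 215990_s_at the changes were -0.49 and -1.29 and both were called (adjusted p = 0.0132 and 1.85e-07 over probe sets), while on 228758_at they were -0.17, which was not called in OCI-Ly7 (adjusted p = 0.574), and -0.97 (adjusted p = 3.6e-06). On 203140_at the Pfeiffer change minus the OCI-Ly7 change was -0.54 ± 0.11 (limma adjusted p = 0.00496).

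Most markers of B cells were bright in both lines, and their summed signal moved with the groups. The summed signal of 7 measured markers of a list of 8 was 52500 to 54400 on OCI-Ly7 control arrays and 62000 to 63500 on OCI-Ly7 siRNA arrays, against 44600 to 45200 and 29800 to 33900 in Pfeiffer. MS4A1 was the brightest of them in every group, and BANK1, which was under a signal of 100 in every group, the dimmest. The 6 tested markers changed in the direction of the sum in both lines, but not all were called. BLK changed by 0.02 ± 0.08 in OCI-Ly7 and CD79A by -0.11 ± 0.07 in Pfeiffer (limma adjusted p = 0.962 and 0.372). BANK1, which was not tested, went the other way in mean signal. Within each group 6 of 7 T cell markers were under 100, but the exception differed by line. In OCI-Ly7 it was CD3E, with mean signals of 107 and 132 on control and siRNA arrays. In Pfeiffer it was CD8A, with mean signals of 12200 and 14300 on control and siRNA arrays. At least 6 of 7 monocyte and granulocyte markers, 5 of 5 NK cell markers and at least 4 of 5 megakaryocyte markers were under 100 in every group. The B cell sum was thus higher on all siRNA arrays in OCI-Ly7 and lower on all siRNA arrays in Pfeiffer. So were AFF3, ALOX5AP and SATB1 on their brightest probe sets. The part of the B cell sum in their values was not tested. In these bulk samples, fewer cells of a type and less RNA per cell cannot be told apart.

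AFF3, the nuclear scaffold protein, had the largest fall in Pfeiffer after NAPSB and stayed high in OCI-Ly7. On its brightest probe set, 227198_at, the Pfeiffer control arrays read 10.09, 10.18 and 10.17 and the siRNA arrays 8.18, 8.23 and 7.62. All siRNA arrays lay below all control arrays, and siRNA replicate 3 was the lowest. The change was -2.14 ± 0.12, from a mean of 10.15 ± 0.05 to 8.01 ± 0.34 (SD, n = 3), which left 22% of the signal. In OCI-Ly7 the control arrays read 12.13, 12.11 and 12.05 and the siRNA arrays 12.25, 12.20 and 12.39. These 2 groups did not overlap either, in the opposite direction. The change of 0.19 ± 0.12 had a 95% interval of -0.07 to 0.45 and was not called (limma adjusted p = 0.521). The order of the groups was Pfeiffer siRNA, Pfeiffer control, OCI-Ly7 control and OCI-Ly7 siRNA, with no overlap between neighbours.

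SATB1, the chromatin organiser, was already dim in Pfeiffer with control siRNA, and its arrays there were the most uneven of the 6 genes. On 203408_s_at the Pfeiffer control arrays read 7.54, 7.18 and 7.14, and the siRNA arrays 4.78, 7.03 and 5.33. Replicate 2 of the siRNA arrays stood just under the lowest control array, while replicates 1 and 3 were far lower. The means were 7.28 ± 0.22 and 5.71 ± 1.17 (SD, n = 3), a change of -1.57 ± 0.37, and in mean signal 141 and 50. The size of the fall rested on single arrays, at -1.10 without siRNA replicate 1 and -2.23 without siRNA replicate 2. It also moved with the pseudocount, to -0.95 with 64 in place of 16.

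In OCI-Ly7 SATB1 went the other way and its arrays were tight. Control arrays read 10.69, 10.56 and 10.67 and siRNA arrays 11.33, 11.29 and 11.28. The groups did not overlap, with mean signals of 1580 and 2500, the latter 158% of control, and standard deviations of 0.07 and 0.03. The change of 0.66 ± 0.37 (95% interval -0.14 to 1.46) was not called in the fit on all arrays (limma adjusted p = 0.444), which gives a gene the same spread in all 4 groups. It was called when each line was fitted on its own arrays (adjusted p = 0.000316) and without Pfeiffer siRNA replicate 2 (adjusted p = 0.0391). The antisense transcript SATB1-AS1, on 241634_at, read 5.22 in control and 6.24 in siRNA arrays of OCI-Ly7 on average, a change of 1.03 ± 0.44 that was not called over all probe sets (limma adjusted p = 0.479), and 5.75 and 5.88 in Pfeiffer. The 4 groups of SATB1 followed the same order as those of AFF3, again without overlap between neighbours.

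ALOX5AP, the partner of the lipoxygenase ALOX5, had the tightest arrays of the 6 genes in Pfeiffer. Its sole probe set, 204174_at, read 10.12, 10.08 and 10.13 on Pfeiffer control arrays and 8.52, 8.64 and 8.52 on siRNA arrays. Every siRNA array was thus lower than every control array by more than the spread within either group. The means were 10.11 ± 0.03 and 8.56 ± 0.07 (SD, n = 3), a change of -1.55 ± 0.07 that left 33.2% of the signal. In OCI-Ly7 the control arrays read 12.94, 12.90 and 13.03 and the siRNA arrays 13.15, 13.36 and 13.14. All siRNA arrays were higher, at 120% of the control signal. The change of 0.26 ± 0.07 (95% interval 0.12 to 0.41) missed the threshold after adjustment (limma unadjusted p = 0.00177, adjusted p = 0.0588). It passed when only the brightest 0.25 of genes were tested (adjusted p = 0.0391) and without Pfeiffer siRNA replicate 3 (adjusted p = 0.0437). Its groups had the order of AFF3 and did not overlap.

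RNF144B, the ubiquitin ligase, fell in Pfeiffer and had a change near 0 in OCI-Ly7. On 228153_at the Pfeiffer control arrays read 10.81, 10.51 and 10.62 and the siRNA arrays 9.0, 9.34 and 9.04. The groups did not overlap, and siRNA replicate 2 was the highest of its group. The means were 10.64 ± 0.15 and 9.13 ± 0.18 (SD, n = 3), a change of -1.52 ± 0.10 that left 34.3% of the signal. In OCI-Ly7 the control arrays read 12.94, 13.11 and 13.14 and the siRNA arrays 13.02, 13.20 and 12.95. The 2 groups overlapped, each with a mean of 13.06. The change was 0.00 ± 0.10, with a 95% interval of -0.21 to 0.21 (limma adjusted p = 0.994), so a fall of the Pfeiffer size lay outside that interval. OCI-Ly7 values were in view when the genes were picked, so the interval describes that choice as well. BCL6 itself also fell less in OCI-Ly7, and its part in this difference was not tested.

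NAPSB, the napsin pseudogene, was highest in Pfeiffer cells with control siRNA and came nearer to its OCI-Ly7 level after BCL6 siRNA. On 228055_at the Pfeiffer control arrays read 11.83, 11.66 and 11.79 and the siRNA arrays 8.97, 9.40 and 9.51. All siRNA arrays were lower, and replicate 1 was the lowest. The means were 11.76 ± 0.09 and 9.30 ± 0.28 (SD, n = 3), a change of -2.46 ± 0.15, from a mean signal of 3460 to 621. This fall ranked 1 of all 9888 tested genes, ahead of AFF3 at rank 2. In OCI-Ly7 the control arrays read 8.44, 8.73 and 8.53 and the siRNA arrays 9.15, 8.64 and 8.89. These groups overlapped, with a change of 0.33 ± 0.15 (95% interval 0.01 to 0.64; limma unadjusted p = 0.0423, adjusted p = 0.304). After BCL6 siRNA the Pfeiffer arrays overlapped the OCI-Ly7 siRNA arrays on this probe set, whereas the Pfeiffer control arrays stood 3.19 above the OCI-Ly7 control arrays. NAPSB shares sequence with NAPSA, so probes may read both; NAPSA on its own probe set had changes of -0.24 ± 0.16 in OCI-Ly7 and -0.18 ± 0.16 in Pfeiffer (limma adjusted p = 0.55 and 0.512).

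MAP3K7CL, the TAK1-like gene, was bright only in Pfeiffer. Its sole probe set, 221211_s_at, read 11.43, 11.24 and 11.34 on Pfeiffer control arrays and 9.52, 9.91 and 9.50 on siRNA arrays. The groups did not overlap, and siRNA replicate 2 was again the highest. The means were 11.33 ± 0.09 and 9.64 ± 0.23 (SD, n = 3), a change of -1.69 ± 0.34 that left 30.7% of the signal. In OCI-Ly7 the control arrays read 6.45, 5.50 and 6.51 and the siRNA arrays 4.90, 6.47 and 5.11, with signals of 13.9 to 75.2. These arrays overlapped at the dim end of the scale. The change of -0.66 ± 0.34 (95% interval -1.39 to 0.07; limma adjusted p = 0.392) became -1.14 without OCI-Ly7 siRNA replicate 2 (adjusted p = 0.0405). A fall confined to Pfeiffer therefore cannot be stated for this gene.

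**Figure D1:**
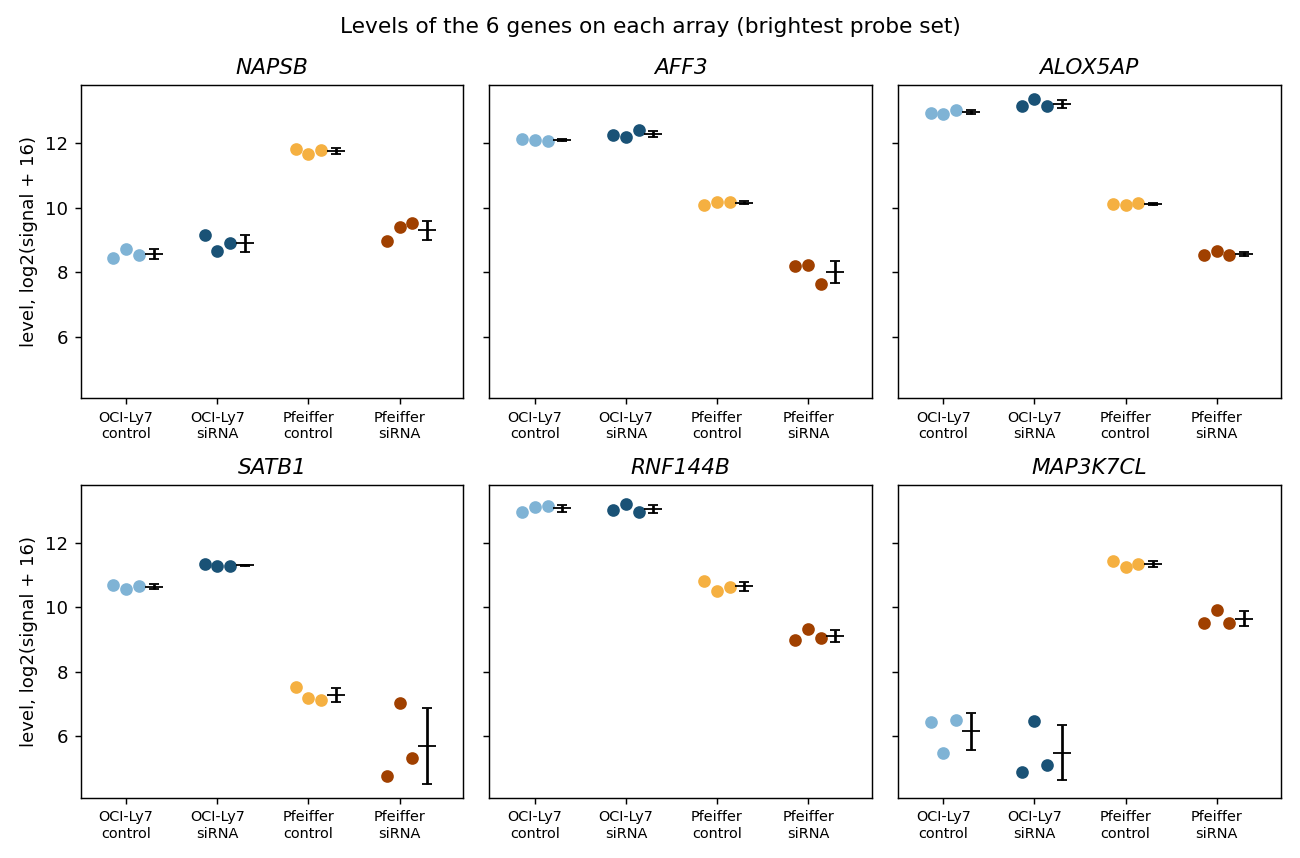
Level of each of the 6 genes on its brightest probe set, as log2(signal + 16), on each of the 12 arrays; points are arrays in the order of replicates 1 to 3, and the bar beside them is the mean and SD of 3 arrays. In every panel the Pfeiffer siRNA points lie below the Pfeiffer control points, SATB1 replicate 2 only just (7.03 against 7.14), while the OCI-Ly7 points of AFF3, ALOX5AP and SATB1 lie higher after siRNA.

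Within the Pfeiffer siRNA group replicate 2 had the highest level for 5 of the 6 genes, NAPSB being the exception with replicate 3. The lowest level was on replicate 1 for NAPSB, SATB1 and RNF144B and on replicate 3 for AFF3, ALOX5AP and MAP3K7CL. BCL6 on these arrays read 13.11, 13.04 and 12.75 for replicates 1, 2 and 3 on 203140_at, 10.45, 10.64 and 10.60 on 215990_s_at, and 11.0, 11.16 and 11.06 on 228758_at. Replicate 2 was thus the highest on 2 of the 3 BCL6 probe sets, and replicate 1 on the brightest.

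The probe sets of NAPSB and of RNF144B moved the same way in Pfeiffer, and those of AFF3 and SATB1 did so only in part. Of the 17 probe sets 12 had all siRNA arrays below all control arrays and 5 overlapped; over all 41091 probe sets 9.72% were lower in this way, but the members were selected on this contrast and nothing is read from the share. With a control mean signal of at least 100, a limit set after seeing the values, 10 of 10 were lower. Of these 6 are the brightest probe sets, whose falls chose the genes, and the other 4 belong to NAPSB (1) and RNF144B (3). Of the 7 dimmer probe sets 2 were lower. AFF3 and SATB1 hold all 7 dim ones. The limit was put on control arrays of the contrast that chose the genes. No share over all probe sets this bright was taken, so nothing is read from the 10 of 10.

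Both NAPSB probe sets fell alike. On 228056_s_at the Pfeiffer control arrays read 9.88, 9.92 and 9.79 and the siRNA arrays 7.95, 7.48 and 7.14, a change of -2.34 that left 18.9% of the signal, against 17.9% on 228055_at. The order of the siRNA arrays was reversed between them, with replicate 1 the lowest on 228055_at and the highest on 228056_s_at. In OCI-Ly7 neither probe set separated the groups. On 228056_s_at the OCI-Ly7 siRNA arrays read 6.98, 6.99 and 7.01, so there the Pfeiffer siRNA arrays stayed above them, by 0.53 on average. A name ending in _s_at marks probes that can bind several transcripts.

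All 4 RNF144B probe sets were lower on every Pfeiffer siRNA array, with changes of -1.52, -1.62 on 235549_at, -1.30 on 239704_at and -1.01 on 239012_at, or 34.3%, 31.7%, 37.1% and 47.6% of the control signal left. On 235549_at the siRNA arrays were uneven, at 4.79, 6.19 and 6.77, against 7.64, 7.51 and 7.47 in controls. The probe sets disagreed on which line holds more RNF144B. Pfeiffer control minus OCI-Ly7 control was -2.42, -2.86 and -1.23 on the first 3 of these, but on 239012_at the Pfeiffer controls read 8.87, 9.18 and 8.72, above the OCI-Ly7 control values of 6.71, 5.41 and 7.70. In OCI-Ly7 239704_at was slightly lower on all siRNA arrays, by 0.11 (SE 0.17, limma adjusted p = 0.927 over probe sets).

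Of the 6 AFF3 probe sets, 227198_at was the sole one above a signal of 100 in Pfeiffer controls. Among the 5 dim ones 1565034_s_at and 205735_s_at were lower on all siRNA arrays, with changes of -0.91 and -1.71. The probe set 243967_at had a change of -1.33 with overlap: control replicate 3 read 5.48 while the other control arrays read 7.24 and 6.95. On 242078_at and 205734_s_at the changes were 0.19 and -0.05 with overlapping arrays, at mean control signals of 36.4 and 4.74, so these 2 probe sets did not show the fall. All 6 read lower in Pfeiffer than in OCI-Ly7, controls and siRNA arrays alike, and the OCI-Ly7 changes of the 5 others ran from -0.14 to 0.07.

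The SATB1 probe sets did not all show the fall. In Pfeiffer controls 241365_at and 244267_at had mean signals of 12.7 and 4.62, and their changes of -0.21 and -0.03 came with overlapping arrays. In OCI-Ly7 241365_at read 6.97, 6.40 and 6.75 on control arrays and 8.11, 7.66 and 7.49 on siRNA arrays, all higher, a change of 1.05 that was not called (limma adjusted p = 0.437 over probe sets), while 244267_at had a change of -0.05. The mean over the 3 probe sets gave a Pfeiffer change of -0.61 for SATB1, and the mean over the 6 probe sets of AFF3 gave -0.99.

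**Figure D2:**
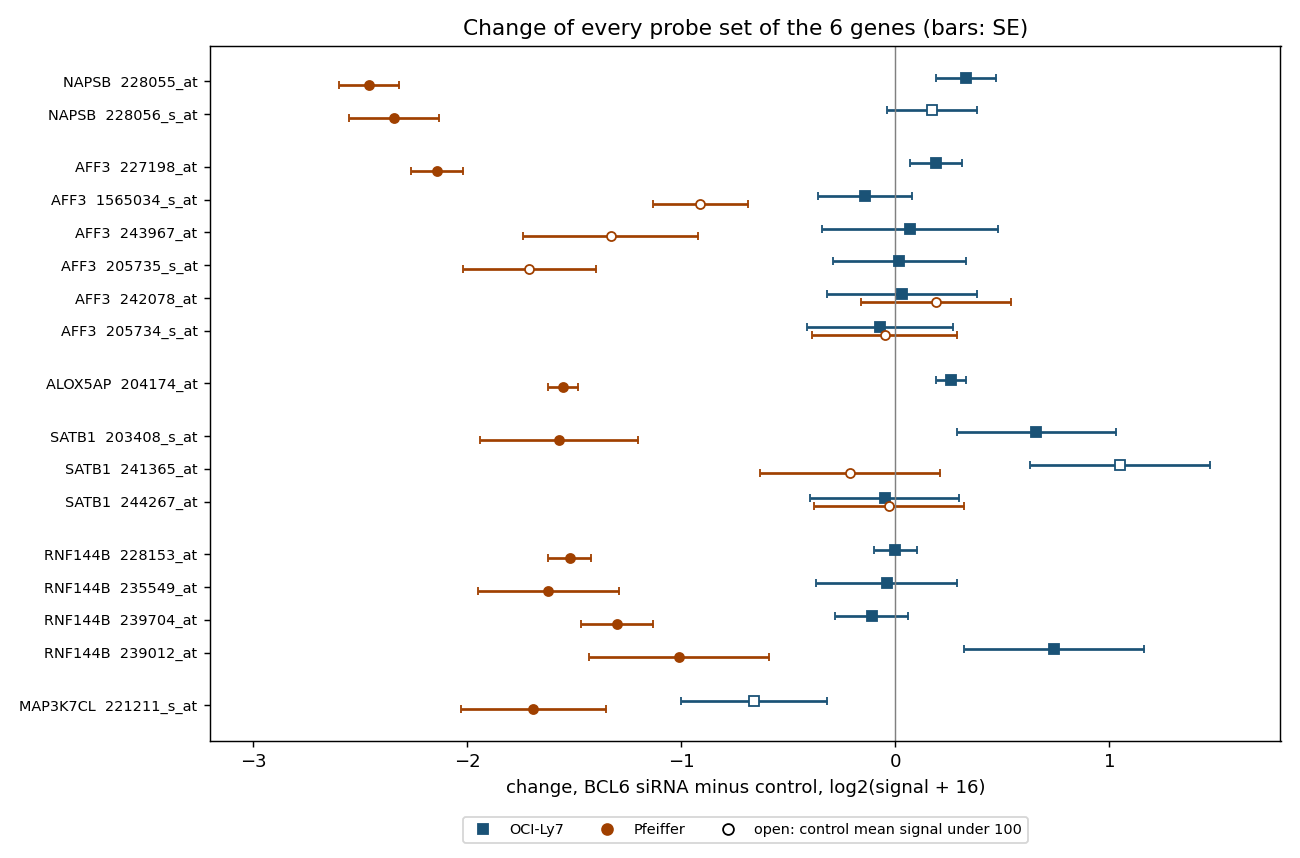
Change of each of the 17 probe sets, BCL6 siRNA minus control, in OCI-Ly7 (squares) and Pfeiffer (circles), with limma's SE from the fit over all probe sets with 1 symbol; open symbols mark a control mean signal under 100 in that line. All 10 filled circles lie between -2.46 and -1.01, the 7 open circles spread from -1.71 to 0.19, and no OCI-Ly7 change was called. The limit of 100 was set after the values were seen, and the genes were chosen for their Pfeiffer falls.

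The OCI-Ly7 changes were not the values the rule names, but they were in view when the genes were picked, so the counts below describe the choice as well as the line. In OCI-Ly7 1.69% of the 9888 genes were called higher and 0.991% lower. Of the 6 genes 0 were called by limma, with NAPSB and ALOX5AP at an unadjusted p under 0.05. On their brightest probe sets AFF3, ALOX5AP and SATB1 had all siRNA arrays above all control arrays, the direction opposite to Pfeiffer. They make 3 of 6 genes against 22.9% of all tested genes whose groups did not overlap in either direction. The exact permutation test of 3 arrays against 3 gave its smallest possible two-sided p of 0.1 for these 3 genes. Groups that do not overlap always give this value, so it restates the lack of overlap. Over the 17 probe sets 0 were called in OCI-Ly7, against 0.455% of all probe sets, and 3 had an unadjusted p under 0.05. Of the 17, 4 were higher on all siRNA arrays, 1 was lower and 12 overlapped. For the unadjusted p and the overlap no share over all probe sets was taken, so nothing is read from those counts.

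Pfeiffer minus OCI-Ly7, the changes differed by -2.79 for NAPSB, -2.33 for AFF3, -2.23 for SATB1, -1.81 for ALOX5AP, -1.52 for RNF144B and -1.04 for MAP3K7CL. These differences hold the Pfeiffer values that chose the genes and were not tested. BCL6 itself changed by -0.96 in Pfeiffer and by -0.42 in OCI-Ly7 on 203140_at. The part of that unequal fall in these differences was not tested. In Pfeiffer 7.90% of genes were called higher and 8.31% lower, and 8.80% were called for the difference between the lines.

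The rule stated no threshold. Of the tested genes 12 fell in Pfeiffer by at least as much as RNF144B, the smallest fall among the members, and 6 of these 12 were not members: KLRA1P (-2.09), LINC01215 (-1.97), PALM2 (-1.74), SPIB, which encodes the Ets factor Spi-B (-1.66), GLI1, a transcription factor of the hedgehog pathway (-1.65), and SCN4A, a sodium channel subunit (-1.56). Just smaller were the changes of GMDS (-1.49), STAP1 (-1.42) and CD52 (-1.40). The OCI-Ly7 changes of the 6 other genes ran from -0.58 for SCN4A to 0.21 for LINC01215.

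Between the lines, 4 of the 6 genes were higher in OCI-Ly7 controls than in Pfeiffer controls and 2 were lower, with no overlap for any of them. How many of all tested genes separate the lines in this way was not counted, so nothing is read from it. Pfeiffer control minus OCI-Ly7 control was -3.35 for SATB1, -2.84 for ALOX5AP, -2.42 for RNF144B and -1.95 for AFF3, and 3.19 for NAPSB and 5.18 for MAP3K7CL. After BCL6 siRNA the gap widened for the 4 genes already lower in Pfeiffer, to -5.59, -4.66, -3.93 and -4.27. It narrowed to 0.40 for NAPSB and 4.14 for MAP3K7CL. These moves hold the Pfeiffer falls that chose the genes, so they restate that choice and were not tested. Over probe sets 13 of 17 were lower in Pfeiffer controls and 4 higher, again without a count over all probe sets.

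The genes whose levels over the 12 arrays ran closest to each member were found by Pearson's r. The 12 arrays form 2 clusters by line, which set most of each r, so the values only describe. RNF144B ran closest to LINC01215 (0.998), STX7, a SNARE protein of endosomes (0.997), and GCSAM, a germinal centre signalling protein (0.996). AFF3 ran closest to DEK, a chromatin protein (0.995), GCSAM (0.991) and LINC01215 (0.991). LINC01215 is also among the 12 largest falls in Pfeiffer, at -1.97, while GCSAM stood at -0.65 ± 0.06 and DEK at -0.82 ± 0.07 there. ALOX5AP ran closest to LOC100996740, OFD1 and APBB1IP (0.997 each), with Pfeiffer changes of -0.90, -0.70 and -0.78. SATB1 ran closest to FOXN3 (0.994), IL16 (0.993) and CHI3L2 (0.990), with Pfeiffer changes of -0.18, -0.85 and -0.87. NAPSB ran closest to HDAC1 (0.986), JAK1 (0.978) and NKIRAS2 (0.976), whose Pfeiffer changes of -0.57, -0.48 and -0.34 were much smaller than its own. MAP3K7CL ran closest to ACACB (0.991), COPS2 (0.989) and TRIM4 (0.989), with changes of -0.46, -0.13 and -0.30.

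The genes around the 6 in their pathways moved in both directions in Pfeiffer. Of 96 listed neighbours, in 6 lists, 65 were tested; 6 rose and 9 fell in Pfeiffer, or 9.23% and 13.8%, against 7.90% and 8.31% of all genes. In OCI-Ly7 1 rose and 1 fell. The difference between the lines was called for 12, or 18.5%, against 8.80%. Over all 9888 genes the median change was 0.01 in OCI-Ly7 and 0.00 in Pfeiffer.

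Around AFF3, all 15 listed genes of its family and of the super elongation complex were tested, with 3 higher and 1 lower in Pfeiffer and a median change of 0.07 in each line. The paralogue AFF1 rose by 0.69 ± 0.11 in Pfeiffer (limma adjusted p = 0.000571), though not when its probe sets were averaged (0.54, adjusted p = 0.26), and AFF4 had a change of 0.07 ± 0.11 (adjusted p = 0.711). AFF2 read 5.93 and 6.34 in Pfeiffer control and siRNA arrays and 8.08 and 8.56 in OCI-Ly7, and neither change was called (adjusted p = 0.301 and 0.394). The elongation factors ELL2 and ELL3 went opposite ways in Pfeiffer. ELL2, which plasma cells use for secretory immunoglobulin, rose by 1.01 ± 0.13 and differed between the lines by 1.31 ± 0.18 (adjusted p = 8.62e-05 and 0.000427). ELL3, which germinal centre B cells express, fell by 1.18 ± 0.07 and differed by -1.15 ± 0.11 (adjusted p = 6.33e-08 and 7.63e-06). EAF2, a partner of the ELL factors, fell in OCI-Ly7 by 0.24 ± 0.06 (adjusted p = 0.0333), a call lost when any of the 6 OCI-Ly7 arrays or Pfeiffer control replicate 1 was left out, and with the mean of probe sets (-0.14, adjusted p = 0.845).

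Around ALOX5AP, 7 of 20 leukotriene and lipoxygenase genes were bright enough to test, with 1 lower in Pfeiffer and medians of -0.05 in OCI-Ly7 and -0.10 in Pfeiffer. The enzyme that ALOX5AP serves, ALOX5, was near background in Pfeiffer, at 4.35 on control and 4.69 on siRNA arrays, against 12.45 and 12.66 in OCI-Ly7. Its changes of 0.34 and 0.21 (SE 0.33 each) were not called (limma adjusted p = 0.556 and 0.835). LTA4H, the enzyme that makes leukotriene from the ALOX5 product, had a change of -0.10 ± 0.05 in Pfeiffer (adjusted p = 0.186). COTL1, an actin-binding protein that also binds ALOX5, fell there by 0.56 ± 0.06 (adjusted p = 6.13e-06) and differed between the lines by -0.44 ± 0.08 (adjusted p = 0.00246, or 0.302 with the mean of probe sets).

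Around SATB1, 12 of 15 chromatin partners were tested, with 1 higher and 3 lower in Pfeiffer and medians of 0.02 and -0.09 in OCI-Ly7 and Pfeiffer. HDAC1, a histone deacetylase that SATB1 recruits, fell by 0.57 ± 0.05 (limma adjusted p = 2.22e-06), with a difference of -0.66 ± 0.07 between the lines (adjusted p = 4.08e-05). The acetyltransferase KAT2B rose by 0.62 ± 0.09 (adjusted p = 0.000142) and differed by 0.57 ± 0.12 (adjusted p = 0.00857). CTNNB1, or beta-catenin, fell by 0.44 ± 0.06 (adjusted p = 0.000241), but not when its probe sets were averaged (-0.38, adjusted p = 0.0791). Its difference of -0.34 ± 0.09 (adjusted p = 0.0278) was lost without OCI-Ly7 control replicate 3, OCI-Ly7 siRNA replicate 3, Pfeiffer control replicates 1 or 3, or Pfeiffer siRNA replicates 1 or 2. It was -0.15 with the mean of probe sets (adjusted p = 0.717).

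Around RNF144B, 11 of 16 ligases of its class and their E2 partners were tested, with 0 higher and 2 lower in Pfeiffer and medians of -0.04 in OCI-Ly7 and -0.18 in Pfeiffer. RBCK1, a subunit of the linear ubiquitin complex, fell by 0.32 ± 0.06 (limma adjusted p = 0.00159; 0.158 with the mean of probe sets). RNF19B fell by 0.49 ± 0.14 (adjusted p = 0.0259), a call lost without Pfeiffer control replicates 1 or 3 or Pfeiffer siRNA replicates 1 or 3, and with Pfeiffer fitted on its own (adjusted p = 0.104). Both falls were much smaller than that of RNF144B.

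Around NAPSB, 8 of 14 aspartic and lysosomal proteases were tested, with 2 lower in Pfeiffer, 1 higher in OCI-Ly7, and medians of 0.10 in OCI-Ly7 and -0.23 in Pfeiffer. CTSS, a cathepsin that trims the invariant chain of MHC class II, fell in Pfeiffer by 0.71 ± 0.06 (limma adjusted p = 1.86e-06) and differed between the lines by -0.80 ± 0.09 (adjusted p = 3.76e-05). CTSH, an aminopeptidase of the lysosome, fell there by 0.54 ± 0.05 (adjusted p = 5.21e-06) and differed by -0.75 ± 0.07 (adjusted p = 1.5e-05). In OCI-Ly7 CTSH rose by 0.21 ± 0.05 (adjusted p = 0.0424), a call lost when any of 9 arrays was left out, all but OCI-Ly7 control replicate 3 and Pfeiffer siRNA replicates 2 and 3. The aspartic protease CTSD had changes of -0.47 ± 0.27 and -0.32 ± 0.27 in OCI-Ly7 and Pfeiffer and was not called (adjusted p = 0.451 and 0.497).

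Around MAP3K7CL, 12 of 16 genes of the TAK1 complex and its activators were tested, with 2 higher and 0 lower in Pfeiffer and medians of 0.01 and 0.00. The kinase gene MAP3K7 had changes of -0.07 ± 0.11 in Pfeiffer and -0.04 ± 0.11 in OCI-Ly7 (limma adjusted p = 0.71 and 0.917). Its binding partners TAB1, TAB2 and TAB3 had Pfeiffer changes of 0.03, 0.17 and -0.22 and were not called (adjusted p = 0.933, 0.189 and 0.122). CHUK, a kinase of the NF-kB pathway downstream of TAK1, rose by 0.91 ± 0.14 (adjusted p = 0.000331) and differed by 0.87 ± 0.20 (adjusted p = 0.0114). TRAF6, a ligase that activates TAK1, rose by 0.73 ± 0.19 (adjusted p = 0.0172). That call did not hold without Pfeiffer control replicates 2 or 3 or siRNA replicate 2, nor when its probe sets were averaged (0.21, adjusted p = 0.538).

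**Figure D3:**
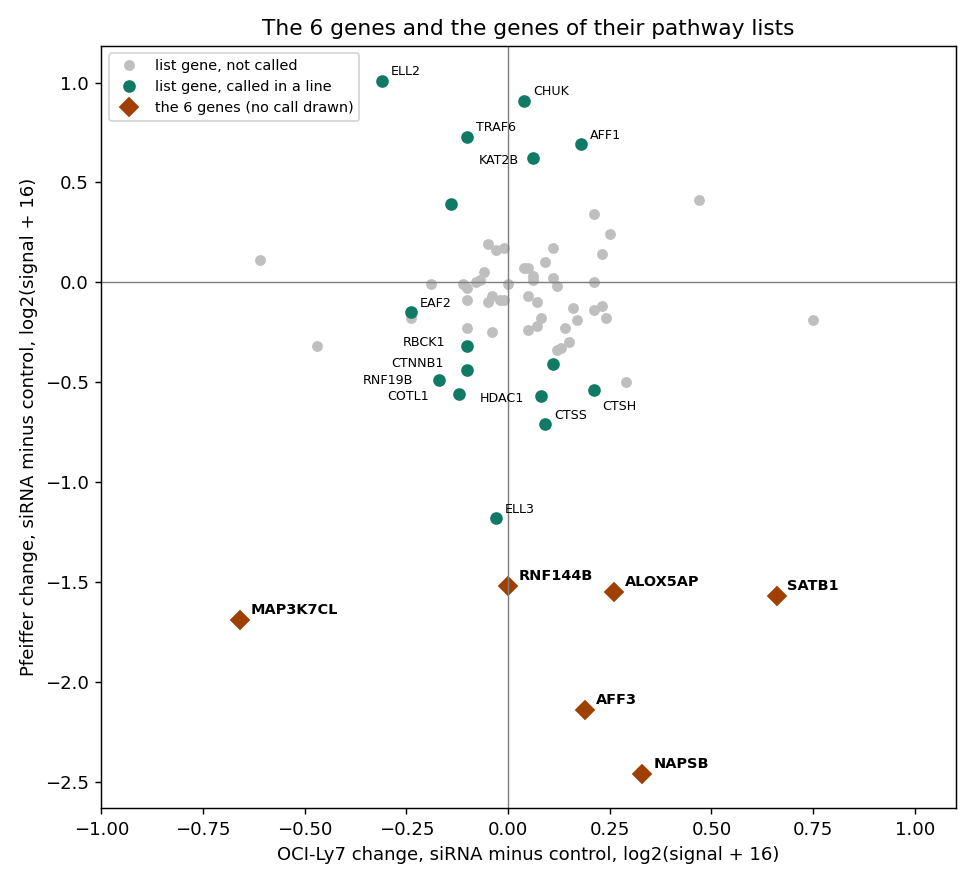
Change in Pfeiffer against change in OCI-Ly7, both BCL6 siRNA minus control on the log2(signal + 16) scale, for the 6 genes (diamonds) and the 65 tested genes of their pathway lists (circles; green where called in either line, labelled where the text names them). ELL3, at -1.18, was the list gene closest to the 6, which lie at -1.52 and below because they were chosen for that.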

How the data were processed

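Arrays were mapped to 4 groups by their titles. The authors deposited log2 signals, made with MAS5 and affy per the submitters' processing notes, with no version given. On the linear scale the mean of an array, with the outer 2% on each side trimmed, was 500.0 throughout, and nothing was normalized further. Since MAS5 takes mismatch signal away, dim probe sets are noisy. Detection calls were not used here. Precision is limited by the number of arrays.

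Platform annotation of 2016 gave 1 symbol to 41091 of 54675 probe sets, several to 1801 and none to 11721, the other 62 being array controls; only the 41091 were used. Each of 19775 genes took its brightest probe set over all arrays. The upper 0.5 of genes by the higher line mean, 9888 with a lowest signal of 223.9, were tested on log2(signal + 16). limma (3.58.1, R 4.3.3; lmFit, eBayes with a trend) was fitted on 12 arrays with 4 group means (8 residual and a median of 6.7 prior degrees of freedom), with two-sided p-values adjusted by Benjamini-Hochberg. The script was tested on simulated data. The members and lists were chosen with earlier results of these data known, so they are no independent evidence; 1 B cell marker and some list genes were not analysed here. Named genes were the members, BCL6, the 3 genes with the highest r to each, up to 3 called genes per list and line, by p, and close relatives or partners of each member; SATB1-AS1, single markers and the genes with falls near those of the members were named after their values were seen. Promoters came from RefSeq (GRCh38.p14), searched with Python 3.11.15. After each group's mean was taken away, same-numbered control and siRNA arrays of a line correlated at -0.08 to 0.08. Arrays with other numbers correlated at -0.11 to 0.09. No pairing by number was visible, which does not show that the arrays were unpaired. Alternatives were other pseudocounts, filters, normalization, probe set rules and limma settings, a replicate block, and each array left out.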

Additional observations from a re-analysis of the deposited data

Results flagged for a closer look

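On their brightest probe sets AFF3, ALOX5AP and SATB1 stood on opposite sides of their controls in the 2 lines. Every Pfeiffer siRNA array lay below and every OCI-Ly7 siRNA array above its controls. No other probe set of AFF3 or SATB1 did so in both lines. With the mean of probe sets the OCI-Ly7 changes were 0.02 for AFF3 and 0.55 for SATB1 (limma adjusted p = 0.984 and 0.24). The Pfeiffer change minus the OCI-Ly7 change was -2.33 for AFF3, -1.81 for ALOX5AP and -2.23 for SATB1. These differences were not tested, because the Pfeiffer values chose the genes, and none of the 3 was called in OCI-Ly7 (limma adjusted p = 0.521, 0.0588 and 0.444).

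For 9 named genes of the pathway lists the change differed between the lines by limma's test of the difference. Pfeiffer minus OCI-Ly7, it was higher by 1.31 for ELL2, 0.87 for CHUK and 0.57 for KAT2B. It was -1.15 for ELL3, -0.80 for CTSS, -0.75 for CTSH, -0.66 for HDAC1, -0.44 for COTL1 and -0.34 for CTNNB1.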

How the results depend on the processing

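Without _s_at and _x_at probe sets the genes lower on every Pfeiffer siRNA array were 4 in place of 6, since MAP3K7CL was then not measured and SATB1 overlapped. Most other alternatives leave array order as it is, and the genes were chosen on it. The Pfeiffer changes moved by more than the spread between replicates for AFF3 (-0.99) and SATB1 (-0.61) with the mean of probe sets, for SATB1 without _s_at and _x_at probe sets (-0.21) and for ALOX5AP with a pseudocount of 64 (-1.44). The number of the 6 called in OCI-Ly7 was 0, but 1 with the brightest 0.25 of genes tested (ALOX5AP) and 1 with each line fitted alone (SATB1), and 0 to 1 with each array left out. The genes called in OCI-Ly7, 265 in all, were 164 with no filter on dim genes, 133 with the mean of probe sets, 169 without _s_at and _x_at probe sets, 142 without the trend, and 101 to 330 with each array left out. In Pfeiffer 1603 became 1027 with the mean of probe sets, and the difference between the lines went from 870 to 534 with that mean and 572 without _s_at and _x_at probe sets. The cause was not tested. With a replicate block the counts were 139 in OCI-Ly7, 1390 in Pfeiffer and 684 for the difference. Of the 6 genes 0 were then called in OCI-Ly7. The CTNNB1 difference lost its call with that block (limma adjusted p = 0.072), as did the RNF19B fall in Pfeiffer (adjusted p = 0.0542). Whether the replicate numbers pair these arrays is not known. No result changed direction past its threshold. Quantile normalization shifted the median of all genes by -0.003 in each line. Dim probe sets limit what can be said of SATB1 in Pfeiffer and of MAP3K7CL in OCI-Ly7.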
